A study of Mus musculus with 19 samples.

Results

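The genes of MHC class I and class II antigen presentation were followed in mouse adipose tissues and in 7 other tissue libraries. Members were chosen by name: every gene whose symbol begins with H2-, except names ending in -ps, together with B2m, Cd74, Ciita, Nlrc5, Tap1, Tap2 and Tapbp. This rule gave 50 genes of the 55740 genes listed in any of the 3 deposited tables. The table of tissues and that of brown adipose tissue listed all 50, while the table of inguinal white adipose tissue listed 32. By role, the 50 members include 5 class II chains, 5 chains of the DM and DO molecules and the invariant chain. Among class I genes are 2 class Ia and 25 class Ib heavy chains and the light chain B2m. The others are 3 genes of peptide transport and loading, 2 transactivators, 5 unprocessed pseudogenes and H2-Ke6. Polymorphic pseudogenes of the annotation were counted by role, H2-Ea as a class II chain and H2-Bl, H2-Q5 and H2-T10 as class Ib. H2-Ke6 is named for the region and encodes a steroid dehydrogenase, so it serves here as a member with no role in antigen presentation.

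MHC class I molecules consist of a heavy chain and beta-2 microglobulin, the product of B2m. They carry peptides that the proteasome makes in the cytosol, the transporter Tap1-Tap2 moves into the endoplasmic reticulum and tapasin (Tapbp) helps to load, and nearly all nucleated cells show them to CD8 T cells. MHC class II molecules consist of an alpha and a beta chain, travel with the invariant chain Cd74, exchange its remnant for other peptides with the help of DM, and are shown to CD4 T cells mainly by B cells, dendritic cells and macrophages. Ciita is the transactivator of class II genes and Nlrc5 that of class I genes. In adipose tissue, class II molecules are best known from macrophages, dendritic cells and B cells of the stromal fraction.

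The study asked how the muscle-derived peptide Musclin, the product of Ostn, acts on adipose tissue. One experiment compared MCK-Musclin with WT control mice in inguinal white adipose tissue (iWAT) and in brown adipose tissue (BAT), with 3 libraries per genotype and tissue. MCK-Musclin mice carry the Musclin coding sequence behind the muscle creatine kinase promoter, on the C57BL/6J background, and the founder line used is not given in the sources used here. All of these mice were 5-month-old males on a chow diet kept at 8 °C for 1 week, so the cold was common to both genotypes. The other 7 libraries came from C57BL/6J WT mice without a stated treatment, 1 library each from small intestine, liver, brain, heart, tibialis anterior (TA) muscle and from brown and white adipose tissue. Levels are FPKM, that is, fragments scaled to the length of a transcript and to the mapped fragments of a library. Differences are log2 fold changes of MCK-Musclin over WT on the log2(FPKM + 1) scale with their SE, from limma fitted over every gene of a table with a mean of at least 1 FPKM. A gene was taken to be at the cutoff when its unadjusted p was under 0.05 and its log2 fold change lay beyond 0.5 in iWAT or 0.3 in BAT, and adjusted p-values are Benjamini-Hochberg values over all genes of the table.

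Summed FPKM per library ranged from 364710 to 384104 in iWAT, from 676362 to 720852 in BAT and from 393682 to 711437 over the 7 tissues. The transgene was checked through Ostn, which was listed at 0 in the 3 WT BAT libraries and at 37.9, 31.6 and 30.3 FPKM in the 3 MCK-Musclin BAT libraries. The promoter is chiefly one of muscle, so Ostn is a weaker check in iWAT, where it was listed at 0, 0 and 0.225 FPKM in WT and at 0, 5.17 and 4.21 FPKM in MCK-Musclin libraries, so that it cannot check the label of MCK-Musclin library 1. Markers of fast skeletal muscle set libraries apart, with summed levels from 10.9 to 4645 FPKM in WT iWAT, from 11.1 to 188 FPKM in MCK-Musclin iWAT, from 497 to 784 FPKM in WT BAT and from 820.4 to 1767 FPKM in MCK-Musclin BAT. Each tissue library was highest in its own marker list, as 34332 FPKM over 4 liver genes in liver and 4883 FPKM over 4 brain genes in brain.

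Most members lie side by side: 46 of the 50 are on chromosome 17, with B2m on chromosome 2, Nlrc5 on 8, Ciita on 16 and Cd74 on 18. In the GRCm38 annotation H2-K1 is at chr17:33996017-34000347, the class II chains H2-Ab1, H2-Aa and H2-Eb1 lie between chr17:34257689 and 34316674, and H2-D1 is at chr17:35262730-35267499. Because these genes arose by duplication, the share of each gene's 75-base exonic sequences that occurs in another gene was computed. It was 0% for B2m, Cd74, H2-Aa, H2-Ab1, H2-Eb1 and H2-Ob, 3.10% for H2-K1 and 5.56% for H2-D1. It reached 20.7% for H2-Q4, 21.1% for H2-Q6, 36.0% for H2-T10 and 39.97% for H2-T22, and the levels of these class Ib genes are uncertain to the extent that reads were assigned to their neighbours. Overlapping exons without strand information add to this for Tapbp, 18.6% of whose sequence is shared, mostly with Gm19412, and for H2-Ke6, 65.5% of which is shared with Gm20427.

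Class II and many class I promoters are known to hold an X box, bound by the RFX complex, and further downstream a Y box with an inverted CCAAT sequence, bound by NF-Y. Ciita and Nlrc5 act through the proteins on these boxes. RefSeq promoter sequences (GRCm38.p6) were matched for 34 of 49 members, Cd74 not being looked up, and the 250 bases upstream of each start were searched on both strands. The X box core ACNGATG was found in 6 of 8 class II promoters (DM and DO included) and in 12 of 23 promoters of class I heavy chains and B2m, against 8.31% of all 32851 promoters of the same length. ATTGG, the inverted CCAAT, was found in 8 of 8 and in 20 of 23, against 33.8% of all promoters. The longer Y box CTGATTGG, which contains ATTGG, was found in 4 of 8 and in 12 of 23, against 3.83%. The interferon-stimulated response element core TTTCNNTTT was found in 1 of 8 and in 5 of 23, against 9.37%.

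Both of the first motifs, at most 40 bases apart, were found in 4 of 8 class II promoters (H2-DMb1, H2-DMb2, H2-Eb1 and H2-Eb2) and in 7 of 23 class I promoters, against 1.00% of all promoters. In 9 of these 11 promoters a pair had 22 or 23 bases between the motifs, at H2-Eb1, H2-Eb2, H2-DMb1, H2-DMb2, H2-D1, H2-M3, H2-Q4, H2-Q6 and H2-Q7. The last 150 bases before the start are shown for a class II gene and for class I genes of the Q cluster, with the X box core and ATTGG, or its complement CCAAT, in capitals. They are H2-Eb1 at chr17:34305717-34305866, H2-Q4 at chr17:35379467-35379616, H2-Q6 at chr17:35424700-35424849 and H2-Q10 at chr17:35469939-35470088, all on the plus strand and written 5′ to 3′.
H2-Eb1: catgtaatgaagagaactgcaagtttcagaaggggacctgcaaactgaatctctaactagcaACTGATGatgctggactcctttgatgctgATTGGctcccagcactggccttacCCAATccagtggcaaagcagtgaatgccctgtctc
H2-Q4: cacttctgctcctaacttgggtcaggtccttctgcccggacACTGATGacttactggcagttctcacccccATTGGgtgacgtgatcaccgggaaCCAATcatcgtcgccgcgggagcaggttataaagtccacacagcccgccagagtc
H2-Q6: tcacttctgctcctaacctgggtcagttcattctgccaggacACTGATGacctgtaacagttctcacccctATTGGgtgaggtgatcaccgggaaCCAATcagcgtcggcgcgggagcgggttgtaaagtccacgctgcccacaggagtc
H2-Q10: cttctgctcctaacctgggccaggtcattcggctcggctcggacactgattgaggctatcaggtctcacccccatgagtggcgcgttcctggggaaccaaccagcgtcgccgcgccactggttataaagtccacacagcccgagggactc
In the first 3 of these, ACTGATG is followed by ATTGG after 22 bases in H2-Eb1 and H2-Q6 and after 23 bases in H2-Q4. The H2-Q10 promoter, from the same cluster, held neither motif in these letters within 250 bases. The relation of these motifs to levels was not tested. A match is a run of letters and was not tested as a binding site.

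In cold iWAT, 9 of 10 class II genes were at the cutoff as higher in MCK-Musclin mice, with group means 1.48-fold to 1.97-fold those of WT, while B2m and the class Ia heavy chains were not at the cutoff. Of 32 members tested, 14 were at the cutoff as higher, where 5.04% of the 12197 genes tested were, and none was lower, where 0.902% were. The median log2 fold change was 0.45 over the members and 0.06 over all genes, and 30 of the 32 values were positive. No member passed an adjusted p of 0.05 in limma, the smallest being 0.143, and no other gene of the table did so either, its smallest value being 0.0912. At an unadjusted p under 0.05 stood 18 of the 32 members, against 16.5% of genes. The 3 MCK-Musclin libraries lay above all WT libraries for 15 members, against 17.9% of all genes, and below them for 0 members, against 5.44%. The count of 14 became 9 without WT library 2. It was 11 when WT library 3, which held 4645 FPKM of fast muscle markers, was left out. The share of all genes at the cutoff in these fits is not given here, so both counts stand without it. Without WT library 1, 86 genes of the table had a limma adjusted p under 0.05, among them Ciita (adjusted p = 0.0473). The split of genes at the cutoff moved with the scaling, from 5.04% higher and 0.902% lower to 3.49% and 1.53% with median ratios and to 14.1% and 0.254% when libraries were centred on general adipocyte markers, where 22 members were higher and 319 genes had an adjusted p under 0.05, among them H2-Aa, H2-Eb1, Cd74 and Tap1 (limma adjusted p = 0.0457 for each).

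The class II chains form the peptide-binding molecules themselves. H2-Aa, the alpha chain of I-A, was at 222, 186 and 188 FPKM in WT and at 263, 299.6 and 345 FPKM in MCK-Musclin libraries. Its partner chain H2-Ab1 was at 325, 216 and 244 FPKM in WT and at 407, 396 and 441 FPKM in MCK-Musclin libraries. For both genes the highest WT library, WT 1, lay below the lowest MCK-Musclin library, and the log2 fold changes were 0.60 ± 0.13 and 0.68 ± 0.16 (SE, limma adjusted p = 0.148 for each). H2-Eb1, the beta chain of I-E, was at 138, 99.3 and 120.1 FPKM in WT and at 163, 184 and 188 FPKM in MCK-Musclin libraries, again without overlap (0.59 ± 0.14, adjusted p = 0.148). Its alpha chain partner is the pseudogene H2-Ea in C57BL/6 mice, which lack I-E at the cell surface for that reason, and H2-Ea was listed at 0 in the BAT and tissue libraries. H2-Eb2, a second beta chain gene, was at 3.77, 2.31 and 2.51 FPKM in WT and at 5.43, 5.32 and 5.20 FPKM in MCK-Musclin libraries (0.73 ± 0.15, adjusted p = 0.144). Summed over the 4 chains, the level was 582 ± 95.1 FPKM in WT and 901 ± 71.5 FPKM in MCK-Musclin libraries (SD, n = 3).

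Cd74, the invariant chain, was at 345, 281 and 272 FPKM in WT and at 393, 469.6 and 465 FPKM in MCK-Musclin libraries. The groups did not overlap, and the log2 fold change was 0.57 ± 0.13 (adjusted p = 0.148). Among the genes of DM, which edits the peptides on class II, H2-DMa was at 14.0, 10.2 and 16.7 FPKM in WT against 18.0, 22.5 and 24.1 FPKM, and H2-DMb2 was at 68.4, 41.1 and 33.3 FPKM against 79.3, 104 and 97.4 FPKM. Neither overlapped, and H2-DMb2 had the largest log2 fold change among the members tested, 1.02 ± 0.25 (adjusted p = 0.154), with H2-DMa at 0.64 ± 0.19 (adjusted p = 0.183). H2-DMb1, which shares 15.8% of its 75-base sequences with H2-DMb2, was at 0.45 ± 0.17, short of the cutoff. DO restrains DM and is best known from B cells. Its chain H2-Oa was at 6.56, 4.99 and 4.01 FPKM in WT and at 9.67, 11.8 and 9.04 FPKM in MCK-Musclin libraries (0.86 ± 0.17, adjusted p = 0.143), and H2-Ob was at 57.4, 31.1 and 34.4 FPKM against 47.9, 81.7 and 76.0 FPKM (0.74 ± 0.28, adjusted p = 0.253). The groups overlapped for H2-Ob, where MCK-Musclin library 1 lay below WT library 1. Together, 9 of the 10 class II genes were at the cutoff, with a median of 0.66.

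**Figure D1:**
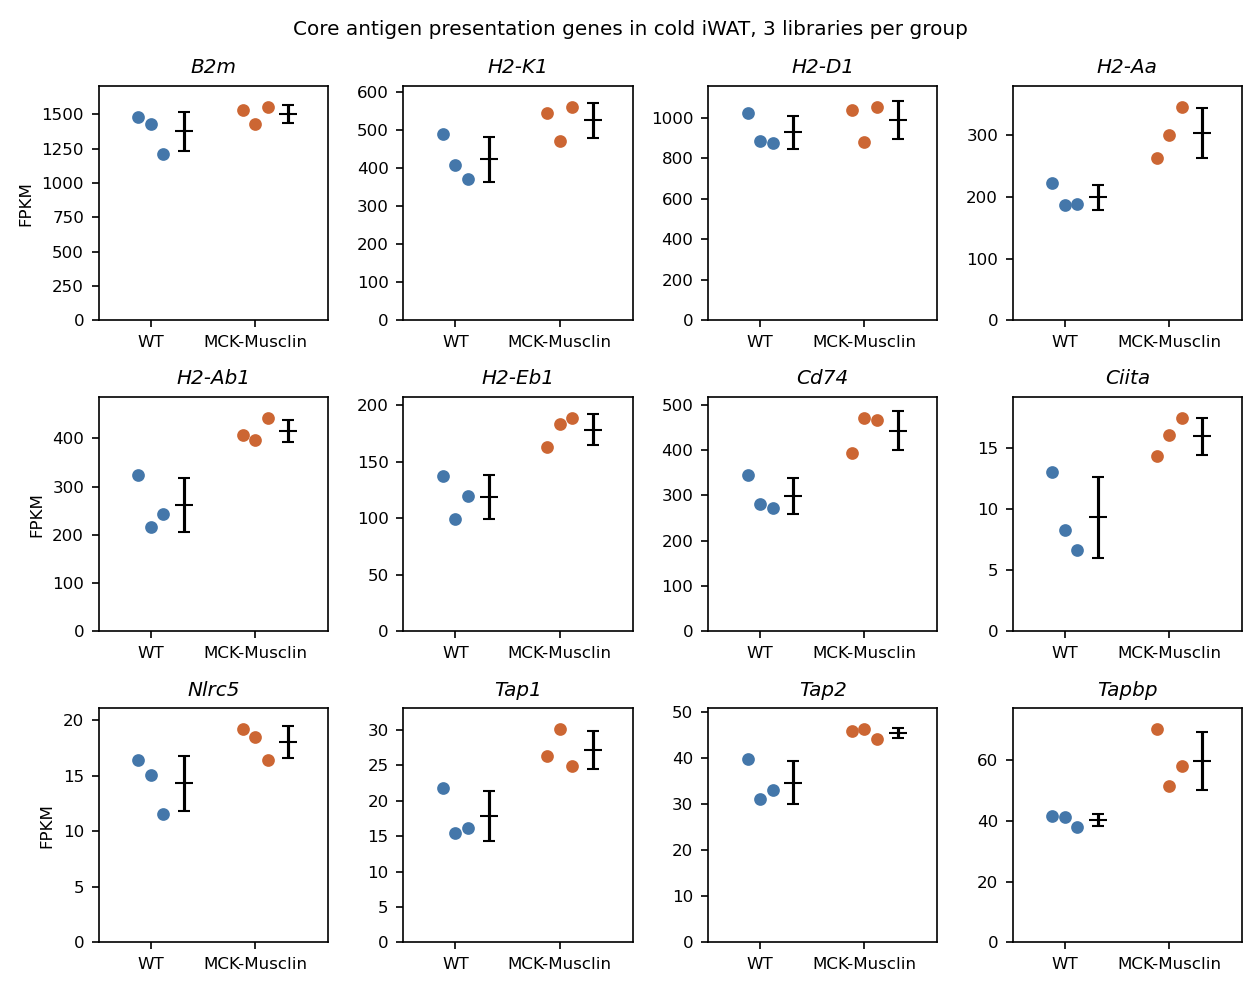
FPKM of 12 core antigen presentation genes in cold iWAT, each point 1 library, with the mean and SD of 3 libraries per group in black and every axis starting at 0. H2-Aa, H2-Ab1, H2-Eb1, Cd74, Ciita, Tap1, Tap2 and Tapbp have all MCK-Musclin libraries above all WT libraries, whereas B2m, H2-K1, H2-D1 and Nlrc5 overlap.

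The class I molecule itself showed smaller differences. B2m, the most abundant member, was at 1481, 1432 and 1212 FPKM in WT and at 1528, 1428 and 1549.6 FPKM in MCK-Musclin libraries (0.13 ± 0.12, adjusted p = 0.637). H2-D1 was at 1023, 886 and 878 FPKM against 1039, 882 and 1053 FPKM (0.09 ± 0.13, adjusted p = 0.752). H2-K1 was at 489, 409 and 371 FPKM against 544, 472 and 559.9 FPKM (0.32 ± 0.14, adjusted p = 0.304). All 3 genes overlapped between the groups, and none was at the cutoff. Expressed within each library, the class II chains amounted to 45.5%, 38.9% and 44.4% of the 2 class Ia heavy chains in WT and to 53.0%, 65.4% and 60.7% in MCK-Musclin libraries, a ratio that no scaling of a library can change.

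Class Ib heavy chains have more restricted roles, among them the display of leader peptides by H2-T23 (Qa-1) to NK cells and of formyl peptides by H2-M3. Of 13 class Ib genes tested in iWAT, 2 were at the cutoff as higher, H2-Q5 and H2-T24, where 5.04% of all genes tested were. H2-Q5, annotated as a polymorphic pseudogene, was at 22.2, 16.6 and 13.1 FPKM in WT and at 25.2, 22.4 and 25.9 FPKM in MCK-Musclin libraries (0.50 ± 0.18, adjusted p = 0.236), while H2-T24 was at 12.3, 10.04 and 6.58 FPKM against 10.9, 24.1 and 15.7 FPKM with overlap (0.72 ± 0.30, adjusted p = 0.297). The other 11 class Ib genes had log2 fold changes from -0.19 for H2-Q10 to 0.48 for H2-T10, and 2 of them, H2-M9 and H2-Q10, were negative. H2-Ke6, the steroid dehydrogenase gene, was at 0.06 ± 0.10.

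Of the genes of peptide transport and loading and the transactivators, Tap1, Tapbp and Ciita were at the cutoff and Tap2 and Nlrc5 were not. Tap1 was at 21.9, 15.4 and 16.1 FPKM in WT and at 26.3, 30.1 and 24.9 FPKM in MCK-Musclin libraries (0.59 ± 0.15, adjusted p = 0.156). Tap2 was at 39.95, 31.2 and 33.1 FPKM against 46.0, 46.3 and 44.3 FPKM, which missed the cutoff by its size (0.39 ± 0.11, adjusted p = 0.181). Tapbp was at 41.4, 41.1 and 37.9 FPKM against 70.0, 51.3 and 57.8 FPKM (0.55 ± 0.13, adjusted p = 0.148). None of these 3 genes overlapped between the groups. The class II transactivator Ciita was at 13.1, 8.32 and 6.62 FPKM in WT and at 14.4, 16.1 and 17.4 FPKM in MCK-Musclin libraries, without overlap (0.76 ± 0.22, adjusted p = 0.180). The class I transactivator Nlrc5 was at 16.4, 15.0 and 11.5 FPKM against 19.2, 18.5 and 16.4 FPKM, where the highest WT and the lowest MCK-Musclin library met (0.32 ± 0.14, adjusted p = 0.312).

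Markers of lymphoid cells moved with the class II genes in iWAT, where 5.04% of all genes tested were at the cutoff as higher. All 10 B cell markers tested were at the cutoff as higher (median log2 fold change 0.84), and their summed level was 320.0, 191 and 166 FPKM in WT and 358, 469 and 459 FPKM in MCK-Musclin libraries. The most abundant of them were Cd79a, a chain of the B cell receptor complex, at 135, 81.7 and 66.9 FPKM against 151, 204 and 224 FPKM, and the IgE receptor gene Fcer2a at 31.0, 16.1 and 14.2 FPKM against 34.4, 45.2 and 40.7 FPKM. All 6 lymph node stroma markers tested, 1 of them Fcer2a again, were at the cutoff too (median 0.88), with sums of 164 to 358 FPKM in WT and 392 to 605 FPKM in MCK-Musclin libraries. They were led by the chemokines Cxcl13, at 79.6 to 257 FPKM in WT and 246 to 439 FPKM in MCK-Musclin libraries, and Ccl21a, at 46.3 to 51.3 FPKM and 56.9 to 92.3 FPKM. Of 9 T cell markers tested, 6 were at the cutoff as higher (median 0.57, sums of 103 to 136 FPKM in WT and 193 to 197 FPKM in MCK-Musclin libraries), the most abundant marker Cd3g among them, while the next, Cd4, was at 0.38 and short of it. No marker of these 3 lists was lower at the cutoff, and none was listed at 0 throughout.

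Myeloid markers moved less. Among all genes tested in iWAT, 5.04% were at the cutoff as higher and 0.902% as lower. Of 10 dendritic cell markers, 3 were at the cutoff as higher (Ccr7, Itgax and Flt3, named after their values were seen), with a median of 0.43 and sums of 43.6 to 52.9 FPKM in WT and 55.4 to 73.6 FPKM in MCK-Musclin libraries. The most abundant were Clec10a, at 0.20, and Siglech, at 0.87, both short of the cutoff. Of 10 macrophage markers, 1 was at the cutoff, Cd68, with a median of 0.22 and overlapping sums of 409 to 429 FPKM in WT and 392 to 578 FPKM in MCK-Musclin libraries, and C1qc and C1qb, the most abundant, had log2 fold changes of 0.25 and 0.30. The 10 general adipocyte markers, led by Fabp4 and Pnpla2, had a median of -0.15 with none at the cutoff, and 4 of 4 brown adipose markers, led by Cidea and Ucp1, were lower at the cutoff, with sums of 428.6, 618 and 788 FPKM in WT and 477, 137 and 75.2 FPKM in MCK-Musclin libraries. MCK-Musclin library 1, the library with Ostn at 0, lay within the WT range there. In tissue RNA, fewer cells of a type and less RNA per cell cannot be told apart. The part of lymphoid cells in the class II result was not tested, but the ratio of class II chains to B cell markers can be given for each library: 2.15, 2.64 and 3.35 in WT and 2.34, 1.89 and 2.14 in MCK-Musclin libraries. The MCK-Musclin ratios lay within or below the range of the WT ratios.

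**Figure D2:**
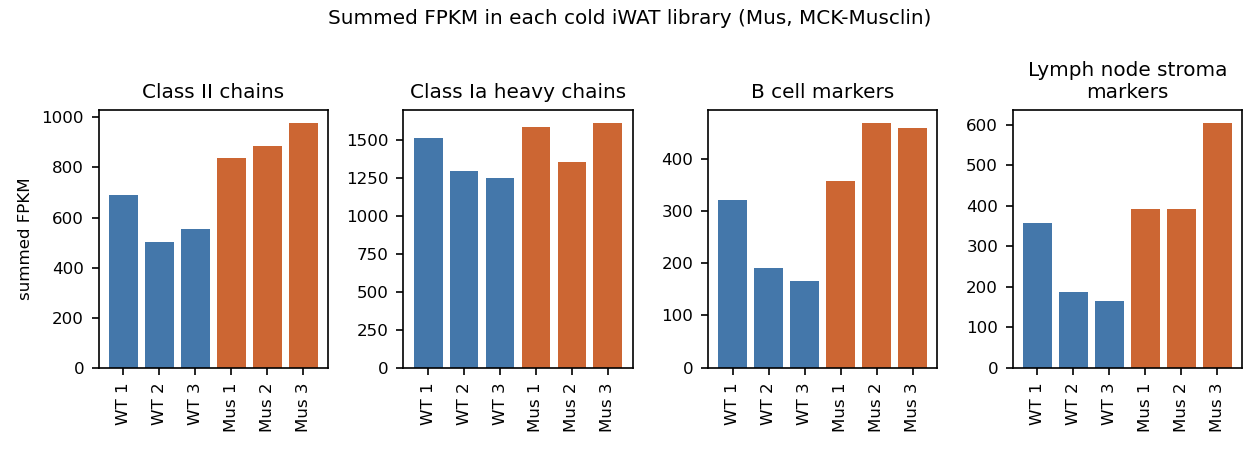
Summed FPKM in each of the 6 cold iWAT libraries for 4 class II chains, 2 class Ia heavy chains, 10 B cell markers and 7 lymph node stroma markers, with bars starting at 0. Class II chains, B cell markers and stroma markers are higher in every MCK-Musclin library than in any WT library, with WT 1 the highest of the WT libraries, while class Ia heavy chains overlap.

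Other genes of the pathways were read in the same fit, where 5.04% of all genes tested were at the cutoff as higher. Of 13 further genes of class I processing, 1 was at the cutoff as higher, the immunoproteasome subunit Psmb8, at 62.5, 46.5 and 47.2 FPKM in WT and 77.1, 70.6 and 74.9 FPKM in MCK-Musclin libraries (0.51 ± 0.13, adjusted p = 0.157). The most abundant genes of that list, the chaperone Calr and the proteasome activator Psme2, were at 0.28 ± 0.15 and 0.31 ± 0.12, and the median was 0.17. Of 8 further genes of class II processing, 2 were at the cutoff as higher, the protease Ctss, which trims the invariant chain, at 0.77 ± 0.19 (adjusted p = 0.157), and the lysosomal thiol reductase Ifi30 at 0.87 ± 0.20 (adjusted p = 0.148). The other abundant protease, Ctsb, was at 0.08 ± 0.11, and the median of the list was 0.20. Of 8 genes of the interferon gamma pathway, 2 were at the cutoff, Irf8 at 0.67 ± 0.15 and Irf2 at 0.54 ± 0.13, with a median of 0.37. The receptor chain Ifngr1, its most abundant gene, was at 0.16 ± 0.12. Of 13 interferon-stimulated genes, 8 were at the cutoff as higher, with a median of 0.66. The most abundant, Ifit3 and Bst2, were at 0.70 and 0.49, both short of the cutoff. These lists held no gene at the cutoff as lower and none with an adjusted p under 0.05.

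In cold BAT no member was at the cutoff in either direction, and 20 of the 24 log2 fold changes of the members tested were below 0. Of 50 members listed, 24 had a mean of at least 1 FPKM and were tested. The other 26 comprised 15 listed at 0 in all 6 libraries and 11 that reached at most 1.41 FPKM, among them Ciita, H2-Oa, H2-Ob and H2-DMb2. Among the 24, 0 were at the cutoff, where 1.85% of the 10893 genes tested were higher and 2.15% lower, and none had an unadjusted p under 0.05, against 4.89% of genes. The median log2 fold change was -0.25 over the members and -0.01 over all genes. The smallest adjusted p of a member was 0.968. MCK-Musclin libraries lay above all WT libraries for 0 members, against 4.38% of genes, and below them for 2 members, Nlrc5 and Tap2, against 5.63%. Without MCK-Musclin library 1, 7 members were lower at the cutoff, with the replicate number as a block 6 were lower, and without MCK-Musclin library 2, 1 was higher and 1 was lower. The share of all genes at the cutoff in these fits is not given here, so the counts stand without it.

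Class I was again the most abundant in BAT, led by B2m at 369, 285 and 313 FPKM in WT and 359.9, 172 and 246 FPKM in MCK-Musclin libraries (-0.37 ± 0.25). H2-D1 was at 173, 137 and 136 FPKM against 146, 90.9 and 124 FPKM (-0.32 ± 0.18), and H2-K1 was at 95.2, 66.4 and 89.5 FPKM against 90.2, 60.7 and 68.5 FPKM (-0.20 ± 0.18). In these 3 genes MCK-Musclin library 2 was the lowest of all 6 and the groups overlapped. The class II chains H2-Aa, at 19.3, 16.8 and 21.4 FPKM in WT and 19.4, 10.7 and 16.1 FPKM in MCK-Musclin libraries, and H2-Ab1, at 42.6, 33.7 and 51.9 FPKM against 41.6, 24.2 and 37.3 FPKM, had log2 fold changes of -0.33 ± 0.20 and -0.32 ± 0.23. H2-Eb1 was at 14.1, 9.33 and 12.6 FPKM against 14.8, 15.5 and 12.5 FPKM (0.24 ± 0.16). MCK-Musclin library 2 was thus lowest in H2-Aa and H2-Ab1 and highest in H2-Eb1. Cd74 was at 52.0, 45.9 and 97.6 FPKM in WT and at 51.8, 51.5 and 76.0 FPKM in MCK-Musclin libraries, with WT library 3 the highest (-0.07 ± 0.29). The class II chains amounted to 28.3% to 38.1% of the class Ia heavy chains in WT and to 32.1% to 34.1% in MCK-Musclin libraries.

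Among the genes of loading and control in BAT, Tap1 was at 4.70, 2.40 and 2.30 FPKM in WT and 2.63, 2.06 and 2.26 FPKM in MCK-Musclin libraries (-0.27 ± 0.22). Tap2 was at 9.38, 8.31 and 8.48 FPKM against 7.58, 6.07 and 7.73 FPKM (-0.26 ± 0.12), and Nlrc5 at 2.77, 2.59 and 2.58 FPKM against 2.16, 2.04 and 2.01 FPKM (-0.25 ± 0.11). Both showed no overlap, with unadjusted p-values of 0.0642 and 0.0562 in limma. Tapbp was at 20.4, 18.6 and 16.2 FPKM in WT and 28.7, 18.8 and 21.8 FPKM in MCK-Musclin libraries, overlapping (0.30 ± 0.16). Ciita stayed between 0.107 and 0.401 FPKM in all 6 libraries. Members with the lowest log2 fold changes were class Ib genes of the Q cluster, H2-Q6 at -0.60 ± 0.30 and H2-Q4 at -0.43 ± 0.22. B cell, T cell and most dendritic cell markers were at or near 0 in BAT, the 10 B cell markers summing to between 0.396 and 1.12 FPKM and the 10 T cell markers to between 0.863 and 2.08 FPKM, so that none of the markers of either list was tested.

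Apart from fast skeletal muscle, the other lists differed little in BAT, where 1.85% of all genes tested were at the cutoff as higher and 2.15% as lower. None of 13 further class I processing genes (median -0.08, led by Calr and Psme2), 8 further class II processing genes (median 0.17, led by Ctsb and Ctsl) and 7 interferon gamma pathway genes (median -0.02, led by Ifngr1) was at the cutoff. Of 8 interferon-stimulated genes, led by Bst2 and Ifit3, 1 was higher at the cutoff, Ifit2, and of 9 macrophage markers, led by C1qc and C1qb, 1 was higher, the growth factor receptor gene Csf1r. None of 2 dendritic cell markers, 1 lymph node stroma marker and 10 general adipocyte markers was at the cutoff. Markers of fast skeletal muscle were higher in MCK-Musclin BAT for 9 of 10 genes at the cutoff (median 0.87), beside the members' negative median, and the part of muscle RNA in it was not tested.

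**Figure D3:**
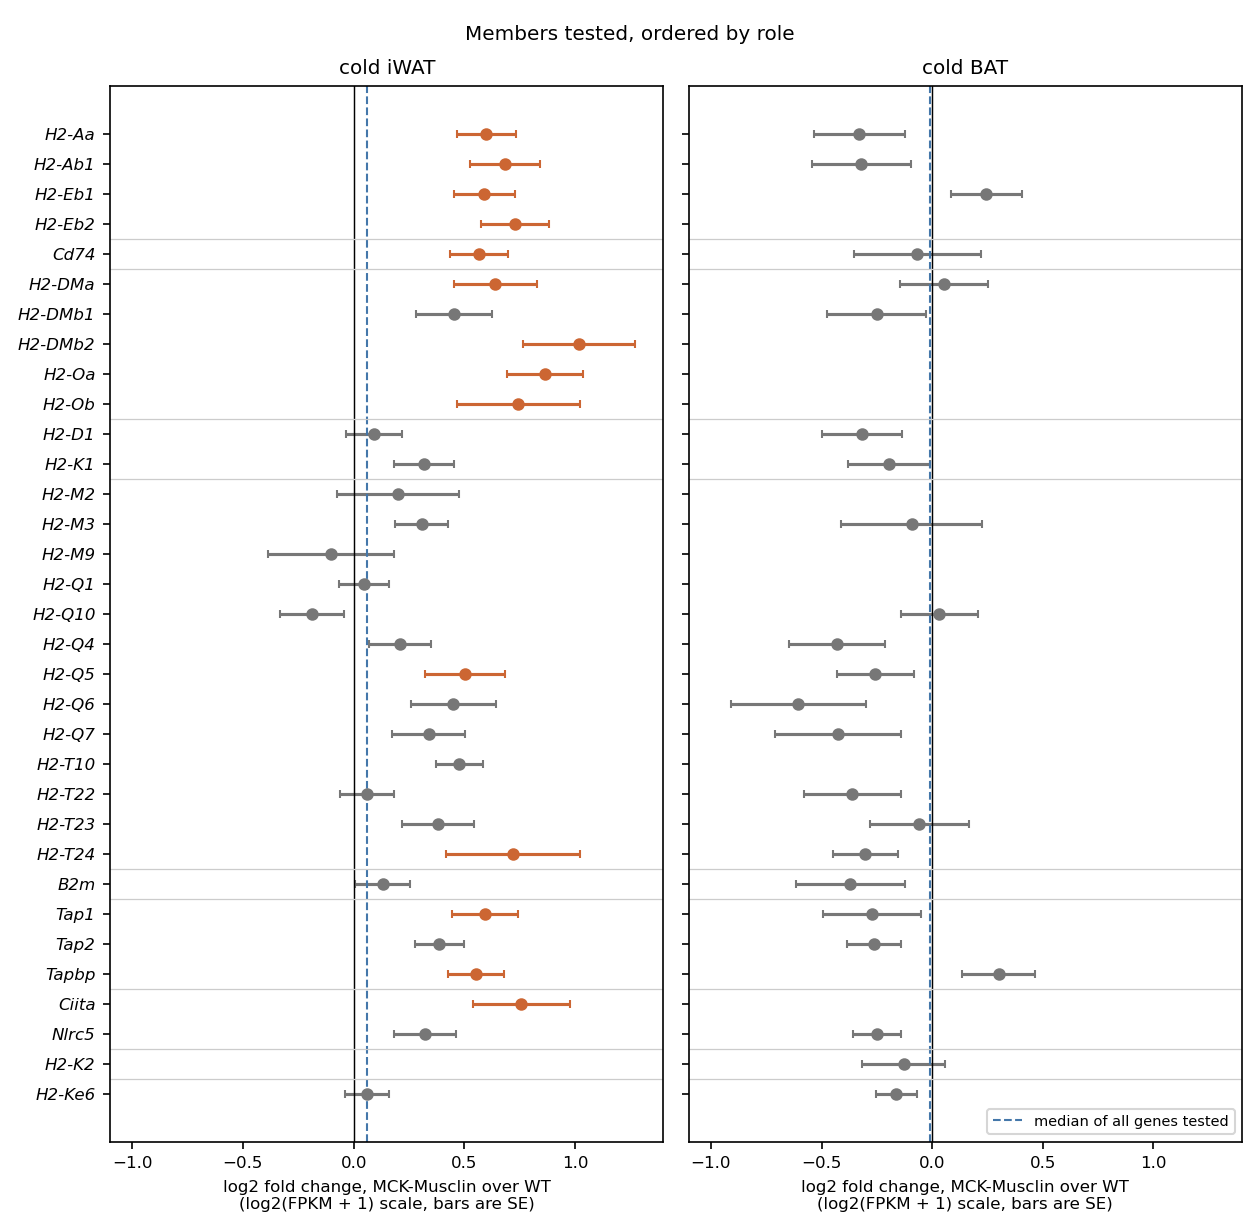
Log2 fold changes of MCK-Musclin over WT with SE for the members tested in cold iWAT (32) and cold BAT (24), ordered by role from class II chains at the top to H2-Ke6 at the bottom, members at the cutoff in orange, all others in grey, and the median of all genes tested as a dashed line. Class II genes sit to the right in iWAT, while 20 of the 24 BAT values are below 0.

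The difference between the tissues was tested as an interaction over the 23 members measured in both, each contrast being taken within its own table. The libraries of both tissues were treated as independent, and any animals shared between the tissues were not modelled. An unadjusted p under 0.05 was reached by 10 of 23 members, against 10.1% of the 9757 genes tested, and none had an adjusted p under 0.05, the smallest over all genes being 0.275. For H2-Aa the BAT contrast was lower than the iWAT contrast by 0.93 ± 0.26 on the log2 scale (limma adjusted p = 0.402), and for H2-Ab1 it was lower by 1.00 ± 0.30 (adjusted p = 0.402). The difference was -0.70 ± 0.30 for H2-DMb1 (limma unadjusted p = 0.0353). Other class II genes did not reach an unadjusted p of 0.05: H2-Eb1 at -0.35 ± 0.22, Cd74 at -0.63 ± 0.35 and H2-DMa at -0.59 ± 0.29.

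In the WT tissue libraries, class II was highest in small intestine and white adipose tissue. The summed class II chains and Cd74 were lowest in brain, and the sum of DM and DO genes was lowest in TA muscle, at 0.827 FPKM against 5.09 FPKM in brain. With 1 library per tissue these levels have no replicate check. H2-Ab1 was at 387 FPKM in small intestine, 140 FPKM in white adipose and 55.0 FPKM in brown adipose tissue, then at 22.6 FPKM in heart, 20.9 FPKM in liver, 14.6 FPKM in TA muscle and 1.63 FPKM in brain. H2-Aa and H2-Eb1 had the same leading tissues, with 265 and 145 FPKM in small intestine and 151 and 82.0 FPKM in white adipose tissue. Cd74 reached 618 FPKM in small intestine and 328 FPKM in white adipose tissue, against 1.98 FPKM in brain. Ciita was at 14.0 FPKM in small intestine and 2.11 FPKM in white adipose tissue, at most 0.350 FPKM in the other tissues and 0 in TA muscle. Genes of DM and DO followed, with H2-DMb1 at 48.4 FPKM and H2-Oa at 2.79 FPKM in small intestine and at 15.9 and 0.900 FPKM in white adipose tissue.

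Class I was more widely spread. B2m was at 911 FPKM in liver, 832 FPKM in small intestine, 825 FPKM in white adipose and 357 FPKM in brown adipose tissue, and at 86.0 FPKM in heart, 52.4 FPKM in brain and 44.0 FPKM in TA muscle. H2-D1 led in white adipose tissue with 632 FPKM and H2-K1 in small intestine with 353 FPKM, and both were lowest in brain, at 19.8 and 9.70 FPKM. The class II chains amounted to 91.4% of the class Ia heavy chains in small intestine, 43.3% in white adipose, 32.8% in brown adipose and 6.84% in liver. In liver, class II was thus low where class I was high.

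Several class Ib genes were nearly limited to 1 tissue library. H2-Q10, which encodes a secreted class I molecule of the liver, was at 860 FPKM in liver, 95.8% of its sum over the 7 tissues, and next at 24.9 FPKM in brown adipose tissue. In cold BAT it was at 129.9, 124 and 126 FPKM in WT and 120.1, 174 and 104 FPKM in MCK-Musclin libraries, and in cold iWAT at 65.1, 58.5 and 47.1 FPKM and 48.3, 55.9 and 44.8 FPKM, the tables being normalised separately. The liver markers summed to at most 0.898 FPKM over 4 genes in BAT and to at most 33.4 FPKM over the 3 listed in iWAT. H2-Q10 shares 12.5% of its 75-base sequences with other genes, most of them with H2-Q7, which was at 28.1 FPKM in liver. H2-T3, the thymus leukemia antigen of intestinal epithelium, was at 63.0 FPKM in small intestine and at most 0.0262 FPKM elsewhere. Small intestine also led in H2-Q2 (330.0 FPKM, next 4.28 FPKM in brain), H2-Q1 (50.8 FPKM), H2-Bl (20.2 FPKM) and H2-M2 (8.06 FPKM). H2-T23 was at 157 FPKM in small intestine and 99.2 FPKM in liver.

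Over all members, 11 of 50 were listed at 0 in all 7 tissues, among them H2-Ea and the 6 genes from H2-M10.1 to H2-M10.6, 4 stayed under 1 FPKM, and 35 reached at least 1 FPKM. Of these 35, small intestine was highest for 25, against 27.1% of the 18327 genes that reached 1 FPKM anywhere, white adipose tissue for 6, against 20.2%, liver for 3, against 8.18%, and brown adipose tissue for 1, H2-Ke6, against 5.72%. No member reaching 1 FPKM was highest in brain, where 29.7% of genes were. Brain, TA muscle and heart had the lowest sums of class Ia heavy chains, at 29.5, 69.0 and 90.7 FPKM. Levels of Tap1 followed class II in their leading tissues, with 32.3 FPKM in small intestine and 9.06 FPKM in white adipose tissue, whereas Tapbp varied less, from 9.69 FPKM in TA muscle to 60.5 FPKM in white adipose tissue.

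**Figure D4:**
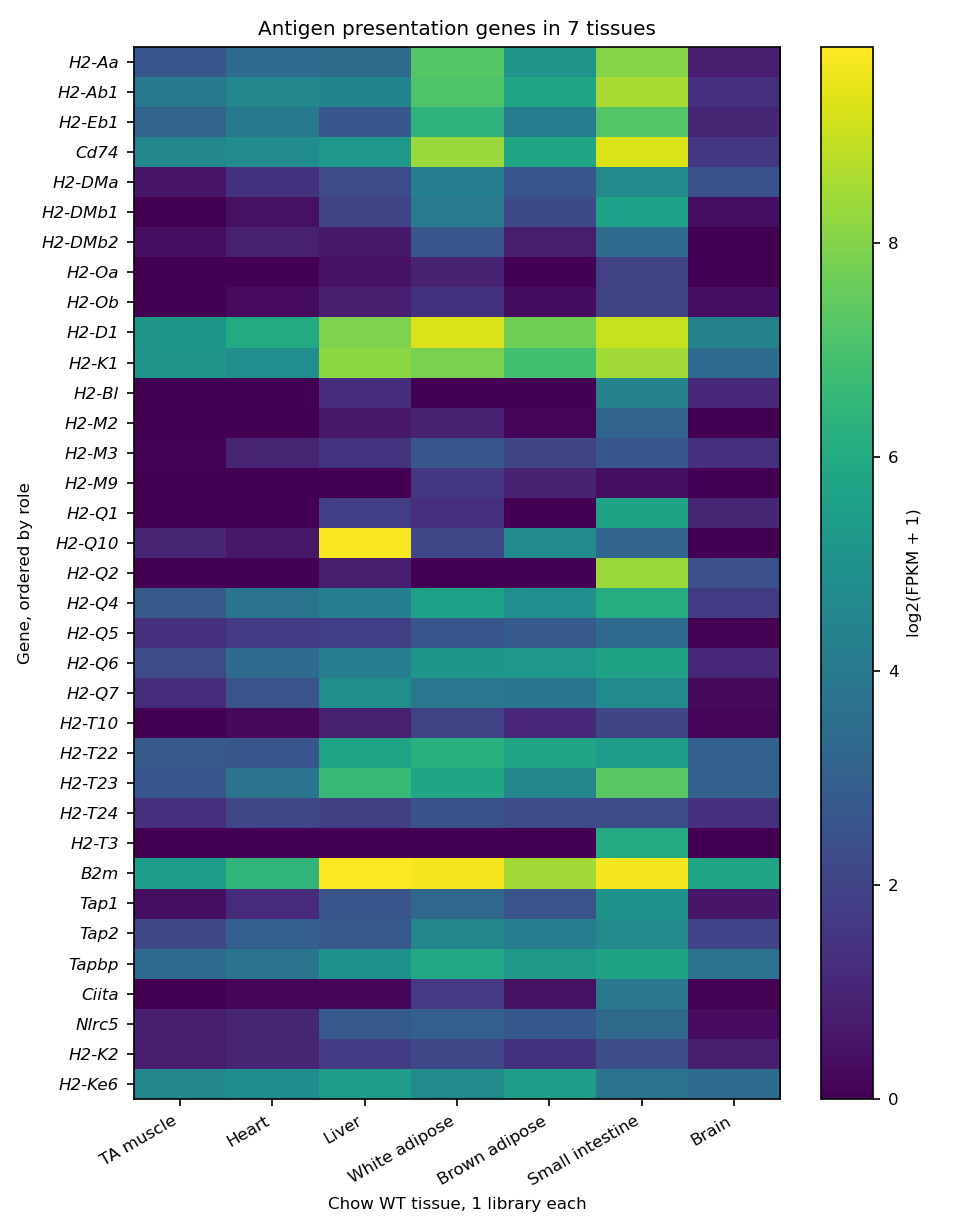
Levels of the 35 members that reached 1 FPKM in at least 1 of 7 WT tissue libraries, as log2(FPKM + 1) by colour, genes ordered by role and 1 library per tissue. Small intestine and white adipose tissue are brightest for class II genes, H2-Q10 is bright in liver, and H2-T3 and H2-Q2 are bright in small intestine alone. The axis names a chow diet, which the sources used here do not give for these libraries.

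The B cell markers that stood beside class II in cold iWAT were low in the 7 tissue libraries. The 10 markers summed to 39.9 FPKM in small intestine, 4.77 FPKM in white adipose and 2.00 FPKM in brown adipose tissue, while the class II chains there summed to 796, 373 and 105 FPKM. The ratio of class II chains to B cell markers was therefore 78.1 in the WT white adipose library of that table and between 1.89 and 3.35 in the 6 cold iWAT libraries, tables that were normalised separately. Macrophage markers summed to 468 FPKM in the WT white adipose library. H2-Ob and H2-Oa, the DO genes, were at 1.72 and 0.900 FPKM in it and at 31.1 to 81.7 and 4.01 to 11.8 FPKM in cold iWAT. The depot and diet of that library are not given in the sources used here, so depot, diet, cold and dissection cannot be told apart.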

How the data were processed

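The authors used fastp and bowtie2 to filter reads and HISAT2 2.1.0 to align them without strand to mm10 (GRCm38), and deposited FPKM per gene and library. The paper names StringTie for this step and the submitters' processing notes name Cuffdiff. RNA came from a column kit for white adipose tissue and from TRIzol for other tissues. The deposited iWAT table also holds the authors' comparison, with a log2 fold change, p-values and a mean normalised signal per group, none of which was used; it lists 13756 genes by a filter that is not stated. Read counts were not used, so read depth is not known and count tests were not run. Summed FPKM is not a measure of depth, since FPKM is already scaled to the mapped fragments of a library. Exact repeats of a line, 287 in each of the other tables, were dropped.

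MCK-Musclin was compared with WT within each table by limma 3.58.1 (lmFit, eBayes with trend, R 4.3.3) on log2(FPKM + 1), without covariates, over genes with a mean of at least 1 FPKM, since tables were normalised separately. P-values are two-sided. The limma script was tested on simulated data. Tissues with 1 library were not tested. The study states that RNA came from biologically independent animals, without tying libraries to animals. Tables were read with Python 3.11.15, pandas 2.3.3 and numpy 2.4.6, and figures drawn with matplotlib 3.10.9.

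Members and gene lists were chosen with earlier results of these data known, so no test was made over members or lists. Per-library values are given for 12 core members and for members at the cutoff, others as ranges, and from each list the 2 genes of highest mean FPKM and those counted at the cutoff where few, except 1 gene and 1 motif not reported here. Lists covered class I and class II processing, the interferon gamma pathway, interferon-stimulated genes, B cells, T cells, dendritic cells, macrophages, lymph node stroma, adipocytes, fast skeletal muscle and marker checks of each tissue. Positions and shared exonic sequence come from GENCODE for GRCm38, promoters from RefSeq. Alternatives were other pseudocounts, filters, scalings, library weights, a replicate block, other cutoffs and leaving out each library; the interaction over both tissues was added after the data were seen.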

Additional observations from a re-analysis of the deposited data

Results flagged for a closer look

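Tap2, a chain of the peptide transporter, was the 1 member for which every library moved in opposite directions in the 2 adipose tissues. Over all genes tested, 17.9% had no overlap as higher in iWAT and 5.63% had none as lower in BAT. The share of genes with both was not computed. Tap2 was picked for this pattern, so the interaction values below draw on the same libraries that picked it. All 3 MCK-Musclin libraries lay above all WT libraries in iWAT, with a log2 fold change of 0.39, and all 3 lay below them in BAT, with a log2 fold change of -0.26. The difference between the contrasts was -0.65 ± 0.16 on the log2 scale in the limma interaction, with an unadjusted p of 0.00165 and an adjusted p of 0.402, so it did not pass the adjusted threshold. Of the exonic 75-base sequences of Tap2, 8.27% occur in other genes, mostly Gm15821, which overlaps it, and the part of these genes in its level was not tested.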

How the results depend on the processing

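The direction of the medians held under all alternatives run. In iWAT, centring on general adipocyte markers moved the median of all genes from 0.06 to 0.25, that of the members to 0.64 and the count of higher members at the cutoff from 14 to 22. Other scalings gave 10 with median ratios, 11 with quantile normalization and 12 with TPM, and a log2 cutoff of 0.3 gave 18. Of all genes, 3.49% were higher at the cutoff with median ratios and 4.96% with TPM. Leaving out 1 library gave 9 (without WT 2) to 18 (without WT 1) higher members and medians from 0.34 to 0.57; without WT 1, 86 genes of the table had an adjusted p under 0.05, among them Ciita (adjusted p = 0.0473). No member was lower at the cutoff in any iWAT alternative. In BAT, adipocyte centring gave 1 higher member, leaving out 1 library gave 0 to 1 higher and 0 to 7 lower members, and the replicate block gave 6 lower. For the fits without a library, the replicate block and the 0.3 cutoff, the share of all genes is not given here. The log2 fold change of B2m in iWAT turned to -0.0426 under quantile normalization, and that of Cd74 in BAT turned to 0.0577 with adipocyte centring and ranged from -0.27 (without WT 2) to 0.26 (without WT 3) when 1 library was left out, positive also without MCK-Musclin 1 (0.0231) and MCK-Musclin 2 (0.0275); the cause was not tested. Of 204 values of core genes in iWAT and 185 in BAT under alternatives, 369 kept direction and side of the cutoff.

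Same-numbered libraries were not taken as pairs, since the labels name no shared origin and their deviations correlated at 0.23, 0.06 and 0.11 in iWAT and at -0.10, -0.0046 and 0.01 in BAT. In iWAT every library matched its own number best except MCK-Musclin 2, which matched WT 3, and in BAT none did. With the number as a block, 13 members were higher in iWAT and the BAT count above moved. Read depth is not known, so low members such as Ciita in BAT are not resolved.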
